A study of Mus musculus with 72 samples.

Results

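The diet effect of the intestine at zeitgeber time 16 (ZT16, 16 h after lights on) was measured as the difference between 3 arrays from mice on a ketogenic diet and 3 arrays from mice on chow. These 6 arrays were chosen by their labelled tissue, diet and time, out of 36 intestine arrays and 72 arrays in all. The ketogenic group (replicates 6, 22 and 23) and the chow group (replicates 7, 8 and 26) were both male C57BL/6J mice, 8 weeks old at the start, given their diet without restriction for 4 weeks under 12 h of light and 12 h of dark. The other 30 intestine arrays came from the same 2 diets at ZT0, ZT4, ZT8, ZT12 and ZT20, with 3 arrays in each group. Lights went off at ZT12, so ZT16 lies in the early dark phase, when mice feed. The tissue is written INTESTINE (IEC) in the labels, which name no segment of the gut. A description shared by all samples also mentions 7 days of oral fructose at 4 g/kg and 30% sucrose in the drinking water; whether either applied to these mice is not stated. Nothing in the labels says that replicates were separate animals, and the tests therefore cover only how far these samples spread.

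A ketogenic diet is rich in fat and very poor in carbohydrate. Fatty acids bind the nuclear receptor PPARα, which turns on genes that carry fatty acids into mitochondria and oxidize them, while dietary sugars act in the gut through the carbohydrate sensor ChREBP and through the hormones released by a meal. The cells of the intestinal lining also hold a circadian clock, a loop in which ARNTL (BMAL1) with CLOCK or NPAS2 switches on the Per, Cry and Nr1d genes, whose products switch the loop off again. Feeding time and the light cycle both set this clock, so a diet can act differently at different hours.

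Each value is the deposited intensity of 1 probe set on 1 array, in linear units of brightness, and differences are ketogenic minus chow on the scale of log2(intensity + 16), which understates changes of dim probe sets. Median intensity was 108.9 to 121.2 on the ketogenic ZT16 arrays and 106.7 to 112.3 on the chow ZT16 arrays. Enterocyte markers were bright in every array, with a summed intensity over 23 genes of 145853 to 154000 in ketogenic arrays and 144522 to 150820 in chow arrays. Chow replicate 26 stood apart in genes that the liver makes: albumin (Alb) was 140.6, 89.4 and 24.7 in ketogenic arrays, against 170.2, 145.9 and 6010.7 in chow arrays. Transthyretin (Ttr) was 197.5, 164.8 and 193.8 in ketogenic arrays, against 161.8, 185.8 and 1162.9 in chow arrays, with replicate 26 again the high one. Ketogenic replicate 23 had an intensity of 3963.8 for Car1, a carbonic anhydrase of colon and red cells, against 12.3 to 378.1 in the other 5 arrays, where chow replicate 26 was the highest. The part of liver or colon RNA in the results was not tested, but each count of list members called at ZT16 that differs without chow replicate 26 is also given without it.

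At ZT16 the ketogenic diet was accompanied by lower expression of more genes than higher. Of 12463 genes tested, 976 (7.83%) had a Benjamini-Hochberg adjusted p under 0.05 in limma's test, and these are the genes called in what follows. Of these, 273 (2.19% of all tested) were higher and 703 (5.64%) lower on the ketogenic diet, and the median difference over all genes was 0.01. With each array centred on its median the split was 140 higher and 947 lower, and with quantile normalization it was 375 higher and 802 lower. A difference of at least 1.5-fold was found for 234 called genes, 64 higher and 170 lower. The ranges of the 3 ketogenic and 3 chow arrays did not overlap for 3906 genes (31.3% of all tested), and for 955 of the 976 called genes. Without chow replicate 26 there were 544 calls, 114 higher and 430 lower. Leaving out chow replicate 8 gave 454 calls, ketogenic replicate 6 gave 531 and ketogenic replicate 23 gave 542, so each of these arrays moves the count by more than 1.5 times.

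Most of what was called at ZT16 was also seen at the other times. In the same fit 1233 genes were called at ZT0 (9.89%), 421 at ZT4 (3.38%), 880 at ZT8 (7.06%), 207 at ZT12 (1.66%) and 790 at ZT20 (6.34%). The mean of those 5 differences, which rests on 30 arrays, was called for 5747 genes (46.1%). Of the 976 genes called at ZT16, 961 had the same sign in that mean and 882 (90.4%) were also called in it. At single times, 49 of the 976 were called at all 5 others and 323 at none of them. Across the 12463 genes the ZT16 difference correlated with that at ZT4 (r = 0.72), ZT20 (r = 0.68), ZT0 (r = 0.57), ZT12 (r = 0.51) and ZT8 (r = 0.49). These correlations run across genes, which are not independent replicates, and are given as a description.

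Pdk4, Acacb and Akr1b8 had the largest rises named here. The largest rises and falls were taken only from called genes whose groups did not overlap. Lack of overlap in those genes follows from that choice. Pdk4 (probe set 10543017) encodes a kinase that shuts down pyruvate dehydrogenase and so keeps pyruvate out of the citric acid cycle. Its intensity was 1803.0, 2892.9 and 2919.6 in ketogenic arrays, against 180.7, 297.5 and 343.6 in chow arrays. Every ketogenic array lay above every chow array, and the rise was 8.88-fold (log2 difference 3.15 ± 0.43 SE, limma adjusted p = 2.96e-05, n = 3 arrays a group). Acacb (10524460), the acetyl-CoA carboxylase at the mitochondrial membrane, had intensities of 492.5, 566.5 and 499.2 in ketogenic arrays, against 69.1, 62.1 and 45.8 in chow arrays. The arrays within a diet lay close together, and the difference of 2.85 ± 0.18 (7.19-fold, adjusted p = 4.54e-12) had the smallest adjusted p at ZT16. Malonyl-CoA, the product of this enzyme, inhibits the carnitine carrier CPT1, and the gene of the liver form of that carrier rose as well. Cpt1a (10460157) had 3214.6, 3547.2 and 3502.5 in ketogenic arrays, against 2007.4, 2148.3 and 1799.3 in chow arrays, a difference of 0.78 ± 0.10 (adjusted p = 1.66e-05) without overlap.

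Of 39 tested PPAR target genes of fatty acid oxidation, 19 rose and 0 fell, with a median difference of 0.37 beside 0.01 over all genes. Between 13 and 16 of them rose when any 1 of the 6 ZT16 arrays was left out, 16 without chow replicate 26. Acot2 (10397145), a mitochondrial acyl-CoA thioesterase, was 1135.3, 1710.0 and 1647.0 in ketogenic arrays, against 414.1, 373.2 and 499.9 in chow arrays, and rose 3.37-fold (1.75 ± 0.27, adjusted p = 0.00013). Hadha (10528929), a subunit of the trifunctional enzyme that works on long chains, was 3549.0, 3411.6 and 3585.1 in ketogenic arrays, against 2390.5, 2511.3 and 2442.4 in chow arrays (0.52 ± 0.08, adjusted p = 8.51e-05). The groups did not overlap for either gene. Other rises were in the carriers Slc25a20 (0.78) and Cpt2 (0.48), the long- and very-long-chain dehydrogenases Acadl (0.81) and Acadvl (0.37), the thiolase Acaa2 (0.65), the electron carriers Etfb (0.36) and Etfdh (0.29), and Pex11a (0.87), which drives division of peroxisomes. Acadm, the medium-chain dehydrogenase, was at 1829.4, 1950.7 and 2028.5 in ketogenic arrays and 1936.9, 2017.1 and 2038.0 in chow arrays, and was not called (-0.04 ± 0.07, adjusted p = 0.702). Cyp4a10, a fatty acid ω-hydroxylase, is among the 19 but its groups overlapped, at 190.5, 227.7 and 305.8 in ketogenic arrays against 0.0, 50.8 and 242.5 in chow arrays, where replicate 26 is the high one. Its difference was 1.96 ± 0.63 with an adjusted p that rounds to 0.05, and it was called with 7 of the 36 arrays left out in turn. It was 2.95 (adjusted p = 0.00274) without chow replicate 26 and 0.945 (adjusted p = 0.303) without chow replicate 7. The number of rises in this list was 27 at ZT0, 14 at ZT4, 6 at ZT8, 15 at ZT12 and 18 at ZT20, beside 19 at ZT16. Over all 12463 genes the rises at those times were 296, 118, 158, 80 and 163, beside 273 at ZT16.

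Other genes of lipid handling rose beside them. Mgll (10539894), monoacylglycerol lipase, was 201.9, 235.9 and 207.2 in ketogenic arrays, against 39.6, 55.1 and 74.1 in chow arrays (1.70 ± 0.19, 3.25-fold, adjusted p = 1.89e-06). Angptl4 (10450038), a secreted inhibitor of lipoprotein lipase, was 1196.8, 955.8 and 867.0 in ketogenic arrays, against 274.8, 525.5 and 388.3 in chow arrays (1.34 ± 0.24, adjusted p = 0.00073). Neither gene's groups overlapped. The list of lipid uptake, chylomicron assembly and storage had 3 rises and 0 falls among 37 genes, and 1 rise without chow replicate 8. The rises were Mgll, the fatty acid binding protein Fabp1 (0.82 ± 0.21) and the long-chain acyl-CoA synthetase Slc27a2 (0.90 ± 0.25), and its median was 0.05. Fabp2, the other main fatty acid binding protein of enterocytes, was 10696.9, 9762.5 and 10689.1 in ketogenic arrays and 10277.6, 10191.2 and 10707.9 in chow arrays, and was not called.

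Among 18 lipogenesis genes 2 rose and 4 fell, with a median of -0.03. The rises were Acacb and Me1 (10595480), the cytosolic malic enzyme that supplies NADPH, which was 620.7, 642.9 and 597.3 in ketogenic arrays, against 166.7, 236.4 and 232.0 in chow arrays (1.5 ± 0.24, adjusted p = 0.000224). The falls were the elongase Elovl5 (-0.68 ± 0.11), the acetyl-CoA synthetase Acss2 (-0.52 ± 0.10), the desaturase Scd2 (-1.03) and Mlxipl, which encodes ChREBP (-0.43). Akr1b8 (10537146), an aldo-keto reductase that reduces reactive aldehydes, was 486.6, 673.2 and 530.4 in ketogenic arrays, against 95.4, 107.1 and 112.2 in chow arrays, a 4.76-fold rise (2.25 ± 0.20, adjusted p = 1.35e-08). The list of NRF2 antioxidant and NADPH genes that holds it and Me1 had 2 further called genes, and both fell: Osgin1 (-0.55 ± 0.15) and Gclc (-0.41 ± 0.11), the catalytic subunit of glutathione synthesis. That list had 1 fall without chow replicate 26 or ketogenic replicate 23 or 6, and 0 without chow replicate 8. The remaining named rises were Ptafr, the receptor of platelet-activating factor (1.67 ± 0.32, adjusted p = 0.00139), and the diacylglycerol kinase Dgkh (1.39 ± 0.20, adjusted p = 7.69e-05). All 9 of the largest rises had the same sign at all 6 times, 6 were called at all 6, and for 4 the ZT16 difference was the largest. Of the 10 largest falls 9 had the same sign at all 6 times, 1 was called at all 6, 6 were called at only 1 or 2 other times, and for 3 the ZT16 difference was the largest.

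**Figure D1:**
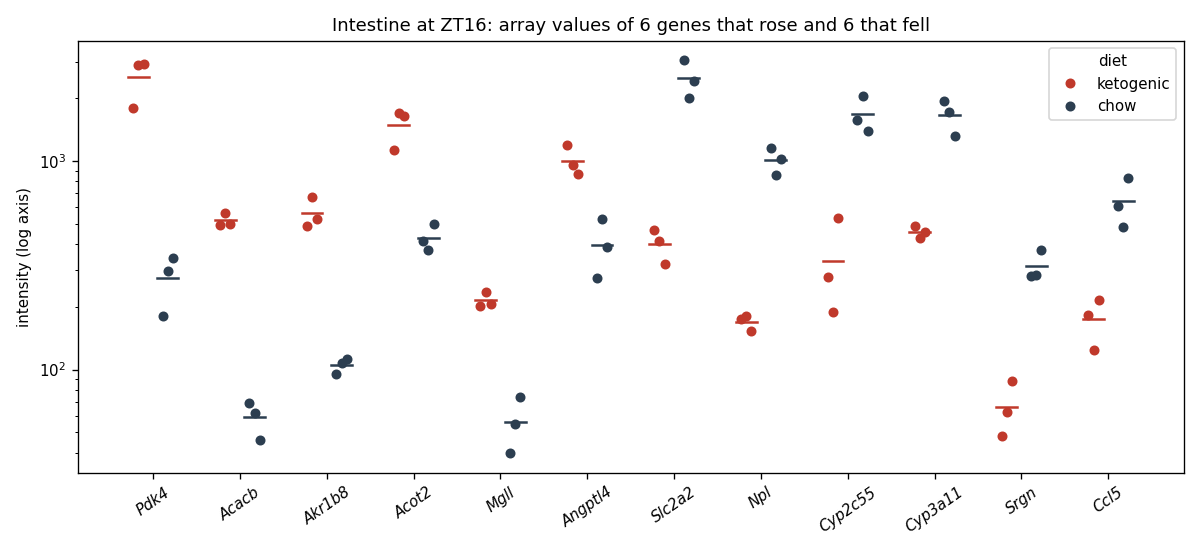
Intensity (log axis) of 12 genes on each of the 6 ZT16 intestine arrays, ketogenic left of chow, with a short line at each group's mean. The 12 genes were taken from called genes whose groups do not overlap, so the lack of overlap follows from that choice. Pdk4 lies at 1803.0 to 2919.6 in ketogenic arrays and 180.7 to 343.6 in chow arrays. Slc2a2 lies at 321.2 to 469.3 in ketogenic arrays and 2020.1 to 3051.2 in chow arrays.

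Genes that digest, absorb and use sugar fell. Slc2a2 (10491171), the GLUT2 carrier through which glucose and fructose leave the enterocyte, was 469.3, 411.8 and 321.2 in ketogenic arrays, against 3051.2, 2020.1 and 2426.9 in chow arrays. The groups were far apart, and the fall was 6.02-fold (-2.59 ± 0.36, adjusted p = 5.24e-05). Since Slc2a2 is also a liver gene, its difference was computed without chow replicate 26 and was -2.60. Of 17 genes in the list 10 fell and 0 rose, with a median of -0.40, and 9 fell without chow replicate 26. At ZT0, ZT4, ZT8, ZT12 and ZT20 the list had 6, 5, 7, 2 and 8 falls. Over all 12463 genes 937, 303, 722, 127 and 627 fell at those times, and 703 at ZT16. Slc5a4a (10364134), a sodium-coupled carrier of the same family as the glucose carrier SGLT1, was 249.3, 193.4 and 225.7 in ketogenic arrays, against 737.1, 569.7 and 566.0 in chow arrays (-1.42 ± 0.18, adjusted p = 1.66e-05). Khk (10520612), the kinase that opens fructose metabolism, was 1210.2, 1148.3 and 1305.0 in ketogenic arrays, against 2469.4, 2070.3 and 2101.8 in chow arrays (-0.85 ± 0.16, adjusted p = 0.00141). In neither gene did the groups overlap, and Tkfc, which acts further along the fructose path, fell too (-0.61 ± 0.13, adjusted p = 0.00352). Slc2a5, the fructose carrier GLUT5 at the lumen, was 521.9, 794.3 and 719.6 in ketogenic arrays and 916.4, 680.1 and 693.9 in chow arrays, overlapped and was not called (adjusted p = 0.679).

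The brush border disaccharidases differed in size of response. Lactase (Lct, 10357418) was 1589.3, 1935.8 and 1625.3 in ketogenic arrays, against 5081.7, 4856.6 and 4550.4 in chow arrays, a 2.8-fold fall (-1.49 ± 0.33, adjusted p = 0.00437). Sucrase-isomaltase (Sis, 10498659) was 7523.7, 7706.7 and 7922.1 in ketogenic arrays, against 10617.3, 9174.1 and 9791.7 in chow arrays (-0.35 ± 0.08, adjusted p = 0.00508). Mgam, the maltase, was 9139.5, 9240.6 and 9268.6 in ketogenic arrays, against 11833.5, 10881.8 and 11070.0 in chow arrays (-0.29 ± 0.07, adjusted p = 0.0105). All 3 were separate between the diets, while the bulk of the enterocyte markers were not called: of 23 genes 3 rose and 3 fell, the falls being Lct, Sis and the glucose carrier Slc5a1 (-0.53 ± 0.12). The rises numbered 1 without chow replicate 26 or ketogenic replicate 23 and 0 without chow replicate 8 or ketogenic replicate 6, while the falls stayed at 3. Arrdc4 and Txnip, a pair of arrestin-like proteins that restrain glucose uptake and whose genes respond to sugar, fell as well. Arrdc4 (10564507) was 251.2, 328.8 and 294.9 in ketogenic arrays, against 466.1, 672.3 and 528.4 in chow arrays (-0.89 ± 0.15, adjusted p = 0.000499). Txnip was 2537.4, 3088.1 and 2732.3 in ketogenic arrays, against 3442.7, 4251.2 and 3350.1 in chow arrays (-0.40 ± 0.12, adjusted p = 0.043). It was called with 31 of the 36 arrays left out in turn. It lost its call without chow replicate 26 (limma adjusted p = 0.0511) and without chow replicate 8 (adjusted p = 0.242).

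ChREBP binds a pair of E-boxes, whose core is written CACGTG, and this hexamer was searched in RefSeq promoters of the mouse build GRCm38.p6 (250 bases before to 50 bases after each gene's start, 300 bases). It reads the same on both strands. It was present in 4 of the 16 sugar list genes with a promoter to search, namely Arrdc4, Khk, Mgam and Slc5a1, all of which fell. Of the same 16 genes 10 fell, and Slc2a2, Lct, Sis, Slc5a4a, Tkfc and Txnip fell without holding it. Among all 27025 promoters 1957 (7.24%) held it. The pair of E-boxes was not searched. The promoters of Arrdc4 (chr7:68749189-68749488, minus strand) and Khk (chr5:30921309-30921608, plus strand) are printed 5′ to 3′ because both genes fell without overlap, with the hexamer in capitals. A match describes letters in this window and does not show a binding site.
Arrdc4: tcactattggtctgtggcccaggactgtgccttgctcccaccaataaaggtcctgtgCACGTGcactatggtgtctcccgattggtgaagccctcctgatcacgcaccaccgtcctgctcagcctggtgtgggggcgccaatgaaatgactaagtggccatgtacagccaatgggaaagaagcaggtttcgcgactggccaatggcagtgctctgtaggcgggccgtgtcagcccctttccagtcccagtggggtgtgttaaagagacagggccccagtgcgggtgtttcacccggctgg
Khk: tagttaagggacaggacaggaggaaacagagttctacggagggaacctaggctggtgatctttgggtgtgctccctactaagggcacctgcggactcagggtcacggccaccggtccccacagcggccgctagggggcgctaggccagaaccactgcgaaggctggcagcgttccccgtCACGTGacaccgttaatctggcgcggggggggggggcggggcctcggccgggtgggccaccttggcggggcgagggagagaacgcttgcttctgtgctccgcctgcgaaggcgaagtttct

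The called genes of glucose production and glycolysis all fell. The gluconeogenesis and glycogen list had 6 falls and 0 rises among 15 genes (3 to 6 falls with any 1 ZT16 array left out, 3 without chow replicate 26 or 8 or ketogenic replicate 23 or 6). Ppargc1a (10529979), a coactivator that drives mitochondrial and gluconeogenic genes, was 803.3, 832.0 and 903.2 in ketogenic arrays, against 2184.4, 1755.6 and 1772.6 in chow arrays (-1.15 ± 0.17, adjusted p = 7.69e-05). Its groups were well apart. The glucose-6-phosphate carrier Slc37a4 (-0.74 ± 0.16) and the pyruvate carboxylase Pcx (-0.58 ± 0.14) fell as well. In glycolysis 3 of 20 genes fell and 0 rose: the hexokinase Hkdc1 (10369567), at 2068.4, 1993.3 and 1830.3 in ketogenic arrays against 2793.0, 2881.1 and 2674.3 in chow arrays (-0.50 ± 0.06, adjusted p = 8.33e-06), Pkm (-0.47 ± 0.11) and Pfkp (-0.28 ± 0.08). In the citric acid cycle 1 of 22 genes fell, Mdh1 (-0.35 ± 0.08), with a list median of -0.07, where 5.64% of all genes fell. In the respiratory chain 0 of 32 were called at ZT16. Among insulin and FOXO genes 6 of 22 fell and 1 rose, the falls including the insulin receptor Insr (-0.59 ± 0.12), the repressor Bcl6 (-0.63 ± 0.14) and Sesn1 (-0.45 ± 0.11), and the rise being Ppargc1b (0.35 ± 0.09). Without chow replicate 26 this list had 3 falls, and without chow replicate 8 it had 2, while the rise was not called without ketogenic replicate 22.

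Of 30 enzymes that clear drugs and other foreign compounds 10 fell and 0 rose, with a median of -0.31, and 8 fell without chow replicate 26. At ZT0, ZT4, ZT8, ZT12 and ZT20 the list had 8, 6, 11, 1 and 8 falls, with 1 rise at ZT0 and 1 at ZT20. The falls over all genes at those times were 937, 303, 722, 127 and 627. Cyp2c55 (10463005), a cytochrome P450, was 278.3, 189.7 and 532.3 in ketogenic arrays, against 1584.8, 2064.3 and 1399.3 in chow arrays (-2.38 ± 0.40, 5.22-fold, adjusted p = 0.000375). Cyp3a11 (10535704), a main drug-metabolizing P450 of mouse gut and liver, was 487.6, 427.1 and 457.0 in ketogenic arrays, against 1946.1, 1724.6 and 1324.5 in chow arrays (-1.81 ± 0.42, adjusted p = 0.00598). Both differences separated the diets, and that of Cyp3a11 was -1.97 without chow replicate 26. The carboxylesterases Ces2a (-1.02 ± 0.19) and Ces1d (-1.27 ± 0.28) and the glutathione transferase Gstm3 (-1.21 ± 0.27) fell as well. Cyp, Ces and Ugt genes have close relatives whose transcripts a probe set may share, so the member that changed is uncertain. Npl (10358879), which splits sialic acid, was among the largest falls, at 175.4, 180.2 and 152.5 in ketogenic arrays against 1154.3, 862.2 and 1029.1 in chow arrays (-2.47 ± 0.33, 5.54-fold, adjusted p = 2.3e-05), and it was called at all 6 times.

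In the cholesterol list 7 of 28 genes fell and 0 rose (5 falls without chow replicate 26), with a median of -0.32 at ZT16 and -0.15 in the mean of the other 5 times. The falls were in sterol transport, with Abcg8 (10447239) at 1706.8, 1923.6 and 1880.0 in ketogenic arrays against 3519.4, 3058.0 and 2634.6 in chow arrays (-0.73 ± 0.14, adjusted p = 0.00143), its partner in pumping sterols out of the cell Abcg5 (-0.50 ± 0.11), the cholesterol importer Npc1l1 (-0.39 ± 0.08) and Stard4 (-0.38 ± 0.07), and in synthesis, with Dhcr7 (-0.48 ± 0.09), Tm7sf2 (-0.48) and Pmvk (-0.61). The median of this list at single times was -0.04 at ZT0, 0.01 at ZT4, -0.36 at ZT8, -0.52 at ZT12 and 0.17 at ZT20. Fgf15, the ileal hormone that tells the liver to stop making bile acids, was 1186.0, 1491.4 and 1270.4 in ketogenic arrays, against 2572.8, 6441.5 and 5574.0 in chow arrays. It was separate between the diets but not called at ZT16 (-1.77 ± 0.57, adjusted p = 0.0522), whereas it was called at ZT0, ZT4, ZT8 and ZT12. Amino acid and peptide carriers had 2 falls and 0 rises among 20, where 5.64% of all genes fell. The falls were the neutral amino acid exchangers Slc7a8 (-0.61 ± 0.11) and Slc43a2 (-0.44 ± 0.11), with 1 fall without chow replicate 7.

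Markers of T cells and intraepithelial lymphocytes, the killer-type T cells that lie between enterocytes, were low in the ketogenic arrays at ZT16. Of 22 markers 20 were on the array and 10 passed the filter on low values. Of those 10, 5 fell and 0 rose, with a median of -0.89, and 3 fell without chow replicate 26 or ketogenic replicate 22. At ZT0 the same list had 6 falls and a median of -0.82, and at ZT4, ZT8, ZT12 and ZT20 it had 0 calls and medians of 0.03, -0.43, -0.22 and -0.38. Ptprc (10358224), the leukocyte surface phosphatase CD45, was 55.4, 40.9 and 67.1 in ketogenic arrays, against 156.4, 162.0 and 183.9 in chow arrays (-1.40 ± 0.21, adjusted p = 9.71e-05). Cd7 (10394054), a T cell surface protein, was 98.6, 75.6 and 127.8 in ketogenic arrays, against 300.6, 337.3 and 367.5 in chow arrays (-1.61 ± 0.34, adjusted p = 0.0027). Gzma (10412211), a granzyme of killer cells, was 65.4, 26.7 and 56.1 in ketogenic arrays, against 179.5, 168.5 and 247.4 in chow arrays (-1.75 ± 0.40, adjusted p = 0.00521). All 3 were separate between the diets and stayed called without chow replicate 26. Cd3e, part of the T cell receptor complex, was 144.6, 116.5 and 160.6 in ketogenic arrays and 196.4, 164.0 and 192.0 in chow arrays, and was not called (-0.36 ± 0.15, adjusted p = 0.142). The summed intensity of the 20 markers on the array was 1255 to 1721 in ketogenic arrays and 2616 to 3407 in chow arrays. In a bulk sample, fewer cells of a type and less RNA per cell cannot be told apart.

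Several of the largest falls by the naming rule were genes that lymphocytes express. Srgn (10369615), the core protein of granule proteoglycan, was 48.2, 62.6 and 88.6 in ketogenic arrays, against 281.3, 283.1 and 374.5 in chow arrays (-2.01 ± 0.41, adjusted p = 0.00213). Trgv1, a variable segment of the γ chain of the T cell receptor, had a difference of -2.07 ± 0.38 (adjusted p = 0.0008). Rgs1, a brake on chemokine receptors, had -1.78 ± 0.27 (adjusted p = 0.00013). Ccl5 (10389207), a chemokine of killer cells, was 183.7, 124.0 and 216.1 in ketogenic arrays, against 608.2, 483.9 and 833.6 in chow arrays (-1.78 ± 0.48, adjusted p = 0.0207), and lost its call without chow replicate 26 (adjusted p = 0.0962). It was the only one of the 19 largest rises and falls to do so. Among the other cell types, 4 of 12 tuft cell genes fell, including the channel Trpm5 (-0.51 ± 0.10), the kinase Dclk1 (-0.51 ± 0.10) and Rgs13 (-0.53 ± 0.14). At ZT0, ZT4, ZT8, ZT12 and ZT20 the tuft list had 5, 6, 6, 3 and 1 falls, where 937, 303, 722, 127 and 627 of all genes fell. Of 14 goblet cell and 14 enteroendocrine genes 0 were called. Of the 13 genes in the Paneth cell list 1 fell (Guca2b, -0.33 ± 0.10), where 5.64% of all genes fell. With any 1 ZT16 array left out 0 of these 13 fell. This call of 1 list member is not read as a change in Paneth cells. Of 6 colon and caecum genes tested 1 rose, Car4 (0.58 ± 0.14), which was also called at ZT0, ZT4, ZT8 and ZT20. Of 10 duodenum and ileum genes 1 fell, and 0 fell without chow replicate 26.

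Genes of MHC class II presentation had the lowest list median at ZT16 among the lists plotted, -1.32, yet only 1 of 7 was called. That was the protease Ctss, at 888.5, 837.1 and 939.7 in ketogenic arrays against 1138.8, 1129.4 and 1098.0 in chow arrays (-0.33 ± 0.08, adjusted p = 0.00979). The invariant chain Cd74 was 212.1, 821.4 and 1556.8 in ketogenic arrays, against 1955.4, 1323.6 and 2160.5 in chow arrays (-1.42 ± 0.89, adjusted p = 0.328). H2-Aa, an α chain of the class II molecule, was 74.9, 280.3 and 660.8 in ketogenic arrays, against 958.8, 595.2 and 1197.7 in chow arrays (-1.77 ± 1.00, adjusted p = 0.272). Both overlapped, with ketogenic replicate 6 the lowest and ketogenic replicate 23 within the chow range. The list median ranged from -1.75 to -0.64 when single ZT16 arrays were left out. At ZT0, ZT4, ZT8, ZT12 and ZT20 the median was -0.53, -0.42, -1.3, -1.3 and -0.7, with 1 fall at each time.

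Interferon-stimulated genes fell: 9 of 23 fell and 0 rose, with a median of -0.35 at ZT16 and also -0.35 in the mean of the other times. Between 6 and 11 fell with any 1 ZT16 array left out, 8 without chow replicate 26. Ifit1 (10462623), which binds viral RNA lacking the host cap, was 123.5, 209.9 and 185.4 in ketogenic arrays, against 470.3, 489.9 and 482.8 in chow arrays (-1.43 ± 0.24, 2.68-fold, adjusted p = 0.000323). Rsad2 (10399710), the antiviral enzyme viperin, was 52.8, 87.8 and 66.0 in ketogenic arrays, against 119.0, 190.6 and 165.2 in chow arrays (-1.04 ± 0.16, adjusted p = 0.000143). Ifit3 (-1.20 ± 0.22) and the restriction factor Trim30a (-0.96 ± 0.17) fell too, and all 4 were separate between the diets.

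**Figure D2:**
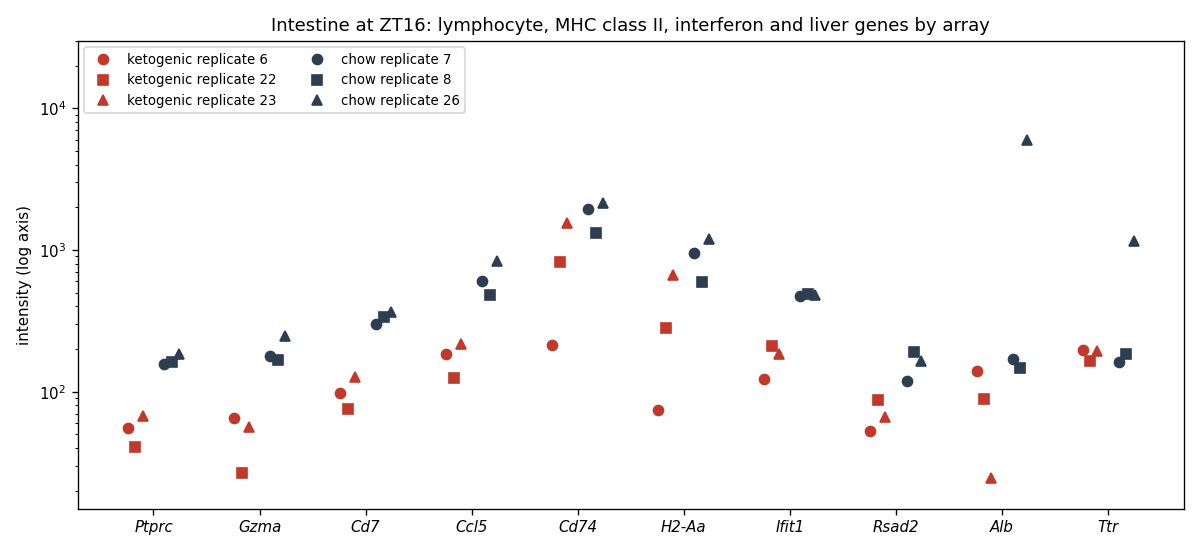
Intensity (log axis) of 4 lymphocyte, 2 MHC class II, 2 interferon and 2 liver genes on each ZT16 intestine array, ketogenic in red left of chow in dark blue, with 1 symbol per replicate. Ptprc, Gzma, Cd7, Ccl5, Ifit1 and Rsad2 are separate between the diets, Cd74 and H2-Aa spread from 212.1 and 74.9 in ketogenic replicate 6 up into the chow range, and Alb and Ttr are high in chow replicate 26.

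Of 16 core clock genes 5 fell at ZT16 and 0 rose (4 falls without chow replicate 26, 2 without chow replicate 8 or ketogenic replicate 23 and 3 without ketogenic replicate 6). Npas2 (10345675), a partner of ARNTL, was 582.2, 436.1 and 438.2 in ketogenic arrays, against 749.5, 982.2 and 721.4 in chow arrays (-0.73 ± 0.15, adjusted p = 0.00256). Arntl (10556463) was 419.5, 304.4 and 223.1 in ketogenic arrays, against 419.6, 586.6 and 417.9 in chow arrays (-0.59 ± 0.16, adjusted p = 0.0202). Npas2 was separate between the diets, while the highest ketogenic array lay within the chow range for Arntl, which was called with 34 of the 36 arrays left out in turn. Neither gene was called at any other time: the Arntl difference was -0.15 at ZT0, 0.26 at ZT4, 0.43 at ZT8, -0.12 at ZT12 and -0.32 at ZT20. Bhlhe40, a repressor that answers feeding and light, was 579.2, 655.2 and 585.0 in ketogenic arrays, against 977.9, 954.8 and 949.1 in chow arrays (-0.65 ± 0.11, adjusted p = 0.000563), and it was called at all 6 times. Fbxl21 (-0.39 ± 0.11) fell too, and lost its call without chow replicate 26.

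None of the Per, Cry and Nr1d genes was called at ZT16. Nr1d1 (10390691), the repressor REV-ERBα that silences Arntl, was 309.7, 405.6 and 491.7 in ketogenic arrays and 444.8, 389.3 and 409.2 in chow arrays, with overlapping groups (-0.06 ± 0.16, adjusted p = 0.836). At ZT0 the same gene was at 261.4 to 502.9 in ketogenic arrays, against 1151.6 to 1325.7 in chow arrays, a difference of -1.75, and it was called at ZT0, ZT4 and ZT20. Nr1d2 and the output factors Dbp and Tef were each called at ZT0, ZT4 and ZT8, with differences at ZT16 of -0.12, -0.34 and -0.09 that were not called. Per2 was 958.9, 993.5 and 887.2 in ketogenic arrays and 888.6, 1015.1 and 939.1 in chow arrays, and its difference rounded to 0 on the log2 scale. Per1 (-0.34 ± 0.19), Per3 (-0.35 ± 0.18), Cry1 (-0.22 ± 0.14), Cry2 (-0.21 ± 0.14), Clock (-0.14 ± 0.07), Csnk1d (-0.04 ± 0.06) and Csnk1e (0.17 ± 0.14) were not called either. A p that misses the threshold does not show that the diets were alike in these genes. In clock output 2 of 13 genes rose, Pdk4 and Por, the electron donor of the cytochromes P450 (0.47 ± 0.14), and 0 fell. Only 1 rose without chow replicate 26, 7 or 8 or without ketogenic replicate 22 or 6, and 1 fell without ketogenic replicate 22.

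**Figure D3:**
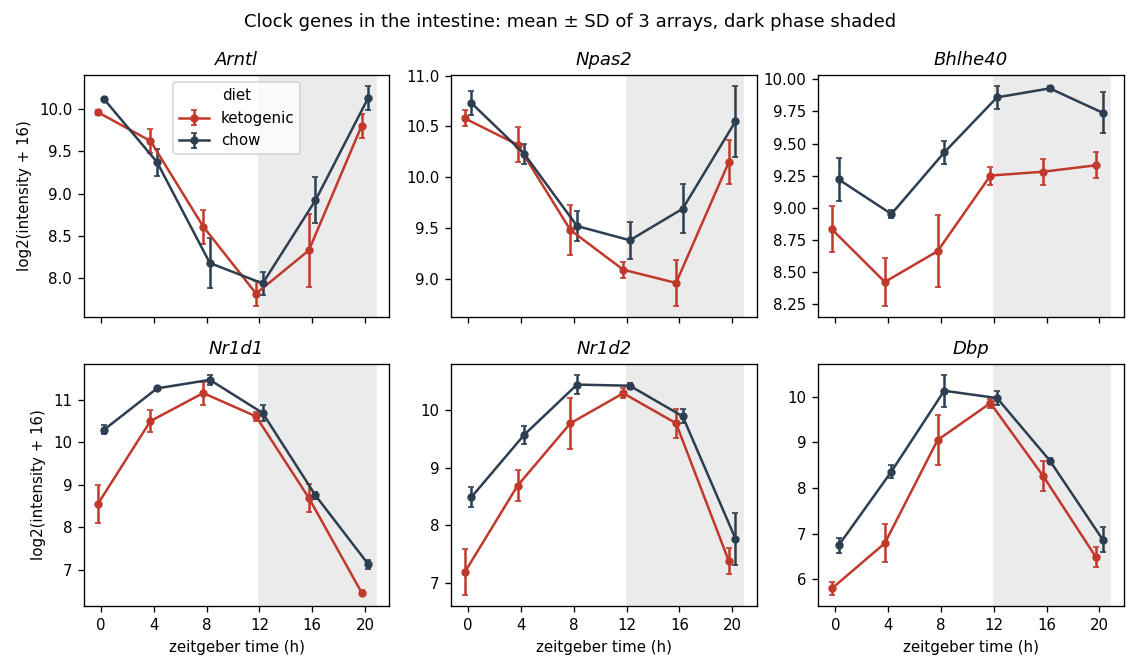
Mean ± SD (3 arrays) of log2(intensity + 16) for Arntl, Npas2, Bhlhe40, Nr1d1, Nr1d2 and Dbp at each time in ketogenic and chow intestine, with the dark phase shaded. At ZT16 the ketogenic mean was below the chow mean for Arntl (8.33 in ketogenic, 8.92 in chow) and Npas2 (8.96 in ketogenic, 9.69 in chow), while the Nr1d1 means were 8.69 in ketogenic and 8.75 in chow.

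Whether a diet difference at ZT16 departed from the other times was tested as the ZT16 difference minus the mean of the 5 other differences. No gene passed in limma's test (0 of 12463, 0%, smallest adjusted p = 0.166), and 781 genes (6.27%) had an unadjusted p under 0.05, of which 478 were positive and 303 negative. Against ZT12 and ZT20 alone, the neighbouring times, 0 genes passed and 695 had an unadjusted p under 0.05. The genes named next had the smallest unadjusted p in each direction and are not calls of a time-specific effect. Sowahc (10363346), an ankyrin repeat protein, was 381.3, 288.6 and 371.7 in ketogenic arrays, against 509.9, 643.7 and 567.7 in chow arrays at ZT16 (-0.70 ± 0.13, adjusted p = 0.000651). At the other times its difference lay between -0.10 and 0.06, and the departure was -0.71 (unadjusted p = 1.33e-05, adjusted p = 0.166). The chow mean at ZT16 was 0.56 above the mean of the other chow times (adjusted p = 0.00432), and the ketogenic mean differed by -0.15 (adjusted p = 0.472).

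Ctsw (10465059), a protease of killer lymphocytes, was 85.3, 66.3 and 90.0 in ketogenic arrays, against 179.7, 170.2 and 195.3 in chow arrays at ZT16 (-1.04 ± 0.16), while its differences at other times lay between -0.41 and -0.07. Its departure was -0.79 (unadjusted p = 8.55e-05, adjusted p = 0.395). The other negative ones were Ptpn3, a tyrosine phosphatase (-0.37), Nos1ap (-0.38) and the transcription factor Sox6 (-0.34). Scarb2 (10531437), a lysosomal membrane protein, led the positive side with Plekho2, Rpia, Coq3 and Zfp239. Scarb2 was 1064.2, 1070.5 and 1084.7 in ketogenic arrays, against 594.6, 564.8 and 581.7 in chow arrays (0.87 ± 0.09, adjusted p = 8.24e-07), with a departure of 0.42 (unadjusted p = 0.000261, adjusted p = 0.436). Plekho2 had a ZT16 difference of 0.77 ± 0.13, and its chow arrays at ZT16 differed by -0.65 from the other chow times (adjusted p = 0.00166), while its ketogenic mean differed by -0.04. Rpia, of the pentose phosphate pathway, had 0.54 ± 0.08 and Coq3, of ubiquinone synthesis, 0.49 ± 0.09. Of the genes already described, Acacb (0.73, unadjusted p = 0.000654), Cpt1a (0.42, 0.000728), Arrdc4 (-0.64, 0.000687), Ptprc (-0.85, 0.000752), Arntl (-0.61, 0.00155), Npas2 (-0.58, 0.00167) and Nr1d1 (0.65, 0.000983) also had a small unadjusted p, each with an adjusted p of at least 0.469.

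**Figure D4:**
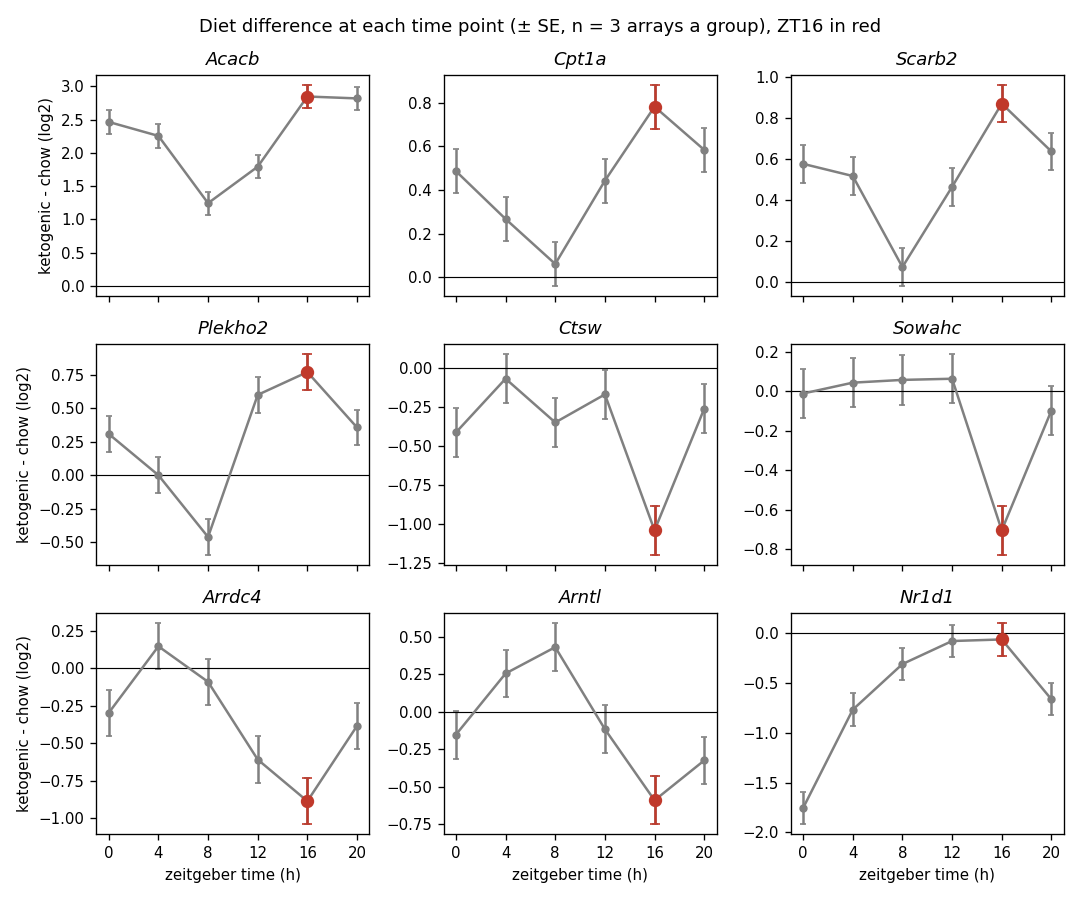
Diet difference (ketogenic minus chow, log2, ± SE from the fit on 36 arrays) of 9 genes at each of the 6 times, with ZT16 in red. Sowahc lies between -0.10 and 0.06 at the other times and at -0.70 at ZT16, and Nr1d1 lies at -1.75 at ZT0 and -0.06 at ZT16; none of the departures from the mean of the other 5 times passed adjustment.

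Set against single times, the ZT16 difference was larger than that at ZT8 for several fat-handling genes. Against ZT8, 13 genes passed, 8 of them higher at ZT16: Acacb (2.85 at ZT16, 1.24 at ZT8, adjusted p = 0.00267), Plekho2 (0.77 at ZT16, -0.46 at ZT8, adjusted p = 0.00267), Scarb2 (0.87 at ZT16, 0.07 at ZT8, adjusted p = 0.00422), Rpia, Mgll, Cpt1a, and Pxmp4 and Hsdl2, a pair of peroxisomal proteins. Of these, Acacb, Plekho2 and Scarb2 passed with each of the 36 arrays left out, Rpia in 34, Mgll in 26, Cpt1a in 24, Pxmp4 in 12 and Hsdl2 in 8 of the 36. The other 5 were the liver genes Alb, Mup2, Mup7, Mup11 and Mup19. In the ZT8 arrays Alb was 1223.4 to 1460.7 on the ketogenic diet, against 8.7 to 79.1 on chow. Whether liver RNA has a part in the ZT8 differences of the other genes was not tested. Against ZT0, 1 gene passed, Nr1d1 (-0.06 at ZT16, -1.75 at ZT0, adjusted p = 0.000492), and it passed with each of the 36 arrays left out. Against ZT4, ZT12 and ZT20 singly, 0 genes passed, with 429, 891 and 315 genes at an unadjusted p under 0.05 in limma's test.

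Some lists sat at an end of their range over the day at ZT16, which is given as a description. The median of 40 cell cycle genes was 0.37 at ZT16 and -0.02 to 0.21 at the other times. Of these genes 37 had a positive sign, beside 6559 of all 12463 genes, and 3 rose: the replication licensing factor Mcm2 (0.50 ± 0.11), the kinase Cdk1 (0.49 ± 0.15) and the uracil glycosylase Ung (0.30 ± 0.08). Cdk1 was 1100.6, 1081.9 and 1047.5 in ketogenic arrays, against 727.0, 825.2 and 742.3 in chow arrays, and Mki67, not called (adjusted p = 0.164), was 1772.7, 1934.9 and 1981.2 in ketogenic arrays, against 1500.8, 1489.6 and 1403.4 in chow arrays. Both were separate between the diets, but Cdk1 and Ung lost their calls without chow replicate 26, and 1 to 2 of the list rose with any 1 ZT16 array left out. Of the 40, 0 departed from the other times at an unadjusted p under 0.05 in limma's test, where 6.27% of all genes did. Other lists had more. The highest shares were in hepatocyte markers, 2 of 3 genes (66.7%), and clock output, 4 of 13 (30.8%). Next were 3 of 10 T cell genes (30.0%) and 4 of 15 stem and crypt genes (26.7%). Core clock had 4 of 16 genes and macrophage markers 1 of 4 (both 25.0%). Without chow replicate 26 these counts were, in the same order, 1, 3, 1, 4, 4 and 0. Without ketogenic replicate 23 they were 2, 1, 3, 1, 3 and 0. None of these genes passed adjustment. The 15 stem and crypt genes tested had a positive sign at ZT16, with a median of 0.16 at ZT16 and -0.29 to 0.06 at the other times. Of them 2 rose, the adhesion receptor Cd44 (10485405) at 495.5, 495.0 and 522.4 in ketogenic arrays against 281.6, 310.3 and 284.4 in chow arrays (0.76 ± 0.21, adjusted p = 0.0247), and Ephb2 (0.36 ± 0.11). Neither stayed called without chow replicate 26, and 0 to 1 of the list rose with any 1 ZT16 array left out. Lgr5, the marker of the stem cells themselves, was 257.0, 386.7 and 451.8 in ketogenic arrays and 336.2, 312.7 and 372.2 in chow arrays, and was not called.

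Immediate early genes, which cells switch on within minutes of a stimulus such as a meal, had a median of -0.38 at ZT16 and -0.19 to -0.06 at the other times. Of 26 genes 5 fell and 0 rose, namely Ier3, Nr4a2, Dusp1, Junb and Ier2, but 1 fell without chow replicate 26, 2 without ketogenic replicate 23 and 3 without ketogenic replicate 22 or 6. Ier3 (10444890), a survival factor, was 122.9, 118.4 and 97.5 in ketogenic arrays, against 201.6, 207.7 and 181.7 in chow arrays (-0.73 ± 0.14, adjusted p = 0.00102), and its groups did not overlap. Fos was 1339.4, 1636.3 and 1176.6 in ketogenic arrays and 1695.3, 1683.3 and 2186.1 in chow arrays, and was not called. Mucosal defence genes had 4 rises and 1 fall among 17. The rises were the antibody carrier Pigr (0.52 ± 0.13), the chemokine Ccl28 (0.86 ± 0.22) and the antibacterial lectins Reg3g (0.54 ± 0.15) and Reg3b (0.60 ± 0.19), and 0 of these 4 were called without chow replicate 26. In the same list 1 gene rose without ketogenic replicate 23 and 2 without chow replicate 8 or ketogenic replicate 6. The fall was the defensin Defb37 (10577340), at 346.2, 306.3 and 456.2 in ketogenic arrays against 917.3, 1939.6 and 1616.5 in chow arrays (-1.92 ± 0.38, adjusted p = 0.00188), which stayed called. At ZT8 the mucosal defence list had 6 rises and 2 falls and a median of 0.23, beside a median of 0.10 at ZT16. It had 0 rises at ZT0, ZT4, ZT12 and ZT20. In the stress lists the shares called were near or below that over all genes (7.83%). Ddit3 (CHOP) fell (-0.64 ± 0.12) as the 1 of 18 in the ATF4 list, where 2 fell without chow replicate 26 or ketogenic replicate 6. Ero1b and Dnajb9 fell among 26 genes of the unfolded protein response, and 1 fell without chow replicate 26, 7 or 8 or ketogenic replicate 23 or 6. The mitochondrial chaperonin Hspd1 rose (0.42 ± 0.13) among 18 heat shock genes, a list with 0 rises when any 1 of 5 of the 6 ZT16 arrays was left out, chow replicate 26 among them.

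**Figure D5:**
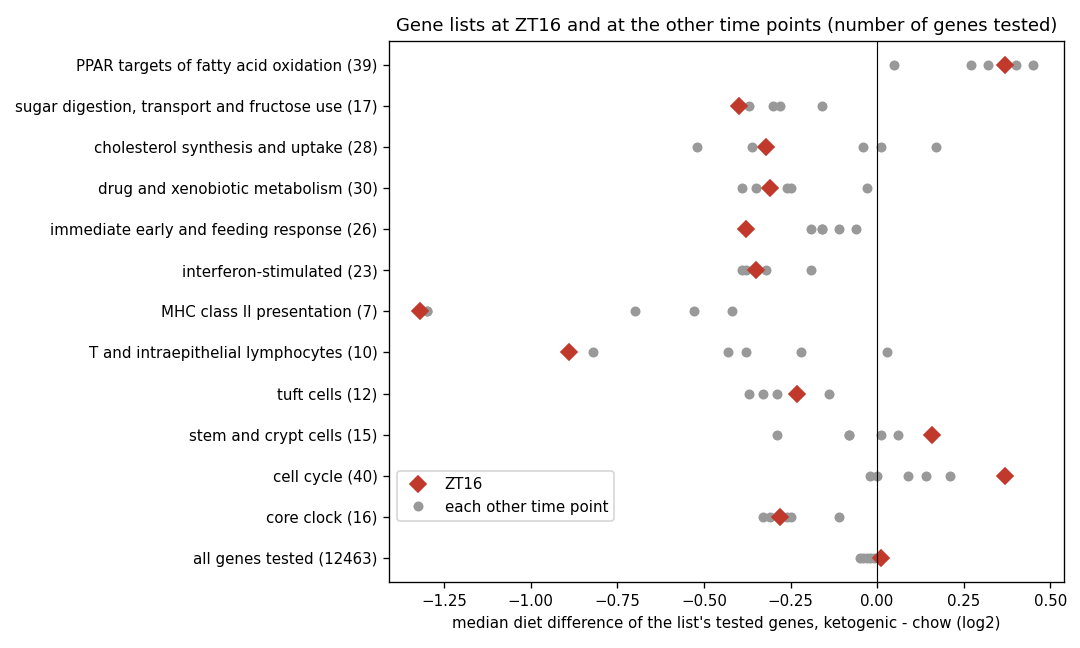
Median diet difference (ketogenic minus chow, log2) of the tested genes of 12 lists and of all 12463 genes, at ZT16 (red diamonds) and at each other time (grey points), with list sizes in brackets. The cell cycle median was 0.37 at ZT16 and at most 0.21 at another time, the immediate early median was -0.38 at ZT16 and no lower than -0.19 at another time, and the all-gene median was 0.01 at ZT16.

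Each diet's ZT16 arrays were also set against the mean of its own other 5 times. On the ketogenic diet 248 genes (1.99%) passed, 102 higher and 146 lower at ZT16, and on chow 53 (0.425%) passed, 28 higher and 25 lower; 29 genes passed on both diets, all with the same sign. The number on chow was 11 without chow replicate 26 and 13 without chow replicate 8, and the number on the ketogenic diet was 77 without ketogenic replicate 23, 96 without ketogenic replicate 22 and 150 without ketogenic replicate 6. The shared part held clock genes, such as Per2 (0.98 on ketogenic, 0.88 on chow), Per3 (1.13 on ketogenic, 0.95 on chow) and Nr1d1 (-0.77 on ketogenic, -1.42 on chow). Npas2 (-0.97 on ketogenic, adjusted p = 1.33e-05) and Arntl (-0.83, adjusted p = 0.000176) passed on the ketogenic diet, and on chow had -0.39 (adjusted p = 0.172) and -0.22 (adjusted p = 0.639). Among lymphocyte genes Ptprc (-0.84, adjusted p = 0.00276), Gzma (-1.22, adjusted p = 0.0288) and Rgs1 (-0.85, adjusted p = 0.0261) were lower at ZT16 on the ketogenic diet, where on chow their values were 0.01, -0.35 and 0.04 and were not called. Of the 10 T cell markers tested, 2 were lower and 0 higher at ZT16 on the ketogenic diet, and 0 passed on chow. Ccl5 did not pass on the ketogenic diet in limma's test (-0.98, adjusted p = 0.188). The tight junction protein Cldn8 was lower at ZT16 on both diets (-1.63 on ketogenic, -0.87 on chow). In the heat shock list 8 of 18 genes were higher and 1 was lower at ZT16 on the ketogenic diet, against 1 higher and 0 lower on chow; Hsph1 had 1.02 on ketogenic (adjusted p = 0.0111) and 0.85 on chow (adjusted p = 0.084), and Hsp90aa1 had 0.59 on ketogenic (adjusted p = 0.00215) and 0.45 on chow (adjusted p = 0.0534). The difference between the diets in these shifts is the departure from the other times, for which 0 genes passed.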

How the data were processed

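RNA of mouse intestine was measured on Affymetrix mouse gene arrays. The authors deposited a linear intensity for each probe set on each array; per the submitters' processing notes it came from PLIER, run in Affymetrix Expression Console 1.1.1, and background and normalization settings are not given in the sources used here. The deposited workbook gives group mean intensity values, equal to the means of the 3 arrays for 25006 of 25006 probe sets in 12 intestine groups (relative tolerance 0.0001), and p-values, which the authors' deposited table names Cyber-T; they were under 0.05 for 3787 of 25006 probe sets (15.1%) at ZT16. Arrays hold no counts, so their number limits the precision.

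Of 35556 probe sets 23162 were given 1 gene symbol, 21789 from the platform table and 1373 from the workbook through RefSeq; 1621 had several symbols and 10773 none. The deposited intensity values were taken as log2(intensity + 16), where 7.47% of intestine values lay below 16. Each gene was represented by its brightest probe set on average, and 12463 genes at or above the 40th percentile of the mean log2 level were tested.

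A model of 12 group means was fitted to the 36 intestine arrays with limma 3.58.1 (lmFit, eBayes; statmod 1.5.0) in R 4.3.3, and was tested on simulated data. Tests were two-sided, with Benjamini-Hochberg adjustment over all 12463 genes and a threshold of 0.05. Tables and figures were made with pandas 2.3.3, matplotlib 3.10.9 and numpy 2.4.6 under Python 3.11.15.

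Genes were named by a rule: the 10 largest rises and 10 largest falls among genes called at ZT16 without overlap, the 5 smallest p in each direction of the time departure, up to 4 members of each list with a call, every core clock gene, and clock output genes called at ZT16. Some genes chosen by this rule are not reported here. Other genes were chosen after their values were seen: Acadm, Alb, Car1, Cd3e, Cd74, Cldn8, Cyp4a10, Dbp, Fabp2, Fgf15, Fos, H2-Aa, Hsdl2, Hsp90aa1, Hsph1, Lgr5, Mgam, Mki67, the Mup genes, Pxmp4, Slc2a5, Tef, Ttr and Txnip, and the list members whose difference alone is given. The arrays, the 41 gene lists and the tests were chosen with earlier results of these data known. The alternatives tried were median centring, quantile normalization, a filter at the 60th percentile or none, robust eBayes with an intensity trend, a pseudocount of 1, only the 6 ZT16 arrays, a 1.5-fold minimum, the title number as a block, other reference times and each array left out; runs without 3 ketogenic arrays that stood apart were added after seeing the data.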

Additional observations from a re-analysis of the deposited data

Results flagged for a closer look

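In 14 genes the diet difference at ZT16 differed from that at 1 other time in limma's test of the difference itself (adjusted p under 0.05 over 12463 genes, each reference time adjusted on its own). At ZT16 minus ZT0 this was Nr1d1, with 1.69 (-0.06 at ZT16, -1.75 at ZT0, adjusted p = 0.000492).

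At ZT16 minus ZT8 the fat-handling genes were Acacb, with 1.60 (2.85 at ZT16, 1.24 at ZT8), Mgll, with 1.37 (1.70 at ZT16, 0.33 at ZT8, adjusted p = 0.0395), Cpt1a, with 0.72 (0.78 at ZT16, 0.06 at ZT8, adjusted p = 0.0395), Pxmp4, with 0.95 (0.91 at ZT16, -0.05 at ZT8, adjusted p = 0.0466), and Hsdl2, with 0.90 (0.77 at ZT16, -0.13 at ZT8, adjusted p = 0.0497). Plekho2 had 1.23 (0.77 at ZT16, -0.46 at ZT8), Scarb2 had 0.80 (0.87 at ZT16, 0.07 at ZT8) and Rpia had 0.63 (0.54 at ZT16, -0.08 at ZT8, adjusted p = 0.0115). With each array left out in turn, Acacb, Plekho2 and Scarb2 passed in all 36 fits, Rpia in 34 and Mgll in 26. Cpt1a passed in 24, Pxmp4 in 12 and Hsdl2 in 8. Without the 3 ketogenic arrays that stood apart, 1 of them at ZT8, all 8 still passed, with limma adjusted p from 2.69e-05 to 0.0126. Those 3 arrays had the largest residual SDs (0.2457, 0.1812 and 0.1799). The spread is estimated over all arrays in a fit, so this fit is not an independent check.

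Genes of the liver ran the other way between ZT16 and ZT8: Alb had -7.79 (-2.69 at ZT16, 5.10 at ZT8, adjusted p = 0.0398), Mup11 had -8.45, Mup19 had -8.45, Mup2 had -8.39 and Mup7 had -8.41 (adjusted p = 0.0404 to 0.0426). The Mup genes are near-identical copies, so their probe sets may share transcripts and are uncertain as 4 results. Each of the 5 passed in 18 or 19 of the 36 fits that left out 1 array. Alb in the ZT16 arrays was 24.7 to 140.6 on the ketogenic diet and 145.9 to 6010.7 on chow. In the ZT8 arrays Alb was 1223.4 to 1460.7 on the ketogenic diet and 8.7 to 79.1 on chow. The fit without the arrays that stood apart kept the other ketogenic ZT8 arrays. Whether liver RNA has a part in the ZT8 differences was not tested. No test for outlying values was run within groups of 3 arrays.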

How the results depend on the processing

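Calls below are at an adjusted p of 0.05. For ZT16 the no-filter, 60th percentile, pseudocount, normalization, trend, 6-array and block settings stayed within 1.5 times of 976, from 882 to 1177. The 1.5-fold minimum left 234 at ZT16, 52 for ketogenic ZT16 against its other times, 17 for chow ZT16 against its other times, and 274, 119, 203, 71 and 177 at ZT0, ZT4, ZT8, ZT12 and ZT20. Without the 3 ketogenic arrays that stood apart (ZT0 replicate 1, ZT8 replicate 26, ZT20 replicate 27) these were 2117 at ZT16 (888 higher, 1229 lower), 376 for ketogenic and 141 for chow ZT16, 957 at ZT4, 3287 at ZT8 and 938 at ZT12, and 1 gene, Plekho2, departed from the other times (adjusted p = 0.0337). Quantile normalization gave 80 and median centring 33 for chow ZT16; median centring gave 701 at ZT0 and 652 at ZT12, where it moved the all-gene median to -0.12. Against ZT0 alone 1 gene departed, and against ZT8 alone 13. With only the 6 ZT16 arrays 1070 genes were called, 416 higher and 654 lower.

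With each array left out, the counts ranged from 454 to 1471 at ZT16, 77 to 321 for ketogenic ZT16, 11 to 95 for chow ZT16, 569 to 1484 at ZT0, 100 to 590 at ZT4, 94 to 2502 at ZT8, 67 to 425 at ZT12 and 305 to 1154 at ZT20. The highest at ZT16, 1471, and for chow ZT16, 95, were without ketogenic ZT0 replicate 1; chow ZT16 had 85 without ketogenic ZT8 replicate 26 and 80 without ketogenic ZT20 replicate 27. Between 0 and 1 gene departed from the other times, and that 1 was Sowahc without chow ZT20 replicate 31 (adjusted p = 0.00771). The cause of these shifts was not tested. No paired analysis was possible because the ZT16 groups share 0 title numbers. The title number as a replicate block over all 36 arrays (correlation 0.146) gave 896 calls at ZT16, 0 departures, 235 for ketogenic and 65 for chow ZT16. The 13 pairs of arrays with the same number in different groups had a median residual correlation of 0.10 (-0.14 to 0.30), against 0 (-0.56 to 0.50) for 581 pairs with different numbers. No named gene reversed sign past the threshold under any setting run.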
